A study of Homo sapiens with 18 samples.

Results

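Keratins are the proteins of the intermediate filaments of epithelial cells. The 43 keratin genes described here are all genes of the data whose symbol is KRT, a number and at most 1 letter, without the pseudogenes and the keratin-associated proteins, out of 19401 genes listed in any of 3 deposited tables. Of the 43, 18 encode type I and 25 type II keratins, and 32 were listed in all 3 tables. The RNA came from MCF10A, a human mammary epithelial line that is immortalized but does not form tumors, kept in all groups in medium with serum, insulin, EGF, hydrocortisone and cholera toxin. CRISPR-Cas9 was used to disrupt CBFB, the partner subunit that steadies RUNX factors on DNA, or RUNX1, a DNA-binding subunit of the same complex. The samples were 3 of 1 CBFB KO clone and 3 of its own wild type (WT), and 4 each of the RUNX1 KO1 clone, the RUNX1 KO2 clone and their WT, 18 samples in 5 groups. A clone can differ from the parental cells in more than the disrupted gene, and nothing states that the samples of a group came from separate cultures.

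A keratin filament is built from pairs of 1 type I and 1 type II chain, so that epithelia make both types, often in fixed couples such as KRT5 with KRT14 in basal cells and KRT8 with KRT18 in simple epithelia. KRT6 and its partners KRT16 and KRT17 are made in wounded or overgrowing epidermis. The hair keratins, among them KRT81 and its neighbours, form the hard filaments of the hair shaft, although KRT81 is also made by breast epithelial and carcinoma lines. Nearly all genes of type II lie side by side in a cluster on chromosome 12, joined there by the type I gene KRT18, and the other type I genes lie on chromosome 17.

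Each table compares 1 knockout with its WT and gives for each gene a mean over all libraries of both. This mean is the level used here, in the authors' normalized counts, which are read counts divided by a factor for the depth of each library. The CBFB table pools 6 libraries and each RUNX1 table pools 8. A level of this kind belongs to knockout and WT together, so it does not say which of them is the higher. It has no value per library, and therefore no SD, and no test was run for any comparison. The levels of all genes summed to 20214423 normalized counts (CBFB table), 18050386 (KO1 table) and 16467400 (KO2 table). These sums stand in for depth, since the reads per library are not known from the tables. The disrupted genes had levels of 897 (CBFB in the CBFB table), 922 (RUNX1 in the KO1 table) and 839 (RUNX1 in the KO2 table), and a pooled level cannot check a knockout. Of 7 markers of basal mammary cells, such as TP63 and ITGA6, all had at least 100 normalized counts in each table, as did 5 of 6 general epithelial markers in the CBFB table and all 6 in the RUNX1 tables. Of 8 luminal mammary markers, 4 had at least 100 in each table. These were CD24 (3636 to 9838), MUC1 (183 to 683), FOXA1 (210 to 274) and GATA3 (216 to 270). ESR1 had 53.9 to 77.6, KIT and ELF5 were under 1 where listed, and PGR was listed in no table. The 4 endothelial markers were under 10 in every table and summed to 3.85 to 5.83. Of the 6 fibroblast markers, PDGFRA (466 to 633) and COL1A1 (236 to 305) were above 100 in every table, while DCN, LUM and PDGFRB were under 10. Of the 5 hematopoietic markers, CD14 had 128 to 142 and PTPRC and CD3E were under 1 where listed. Of the 4 melanocyte markers, MLANA reached 12.1 in the CBFB table and no other value was above 10.

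Several keratins share stretches of sequence, which bears on how reads could be assigned to them. The first 60 coding bases of KRT6A and of the KRT14 set are shown as genes with close copies, read from the GENCODE 29 transcripts of GRCh38, with capitals at the bases that differ from the first sequence of each set. KRT6B and KRT6C have the same 60 bases as KRT6A. KRT16 has the same bases as KRT14, and KRT17 differs from KRT14 at 6.
KRT6A: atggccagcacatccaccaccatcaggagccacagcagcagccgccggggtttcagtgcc
KRT14: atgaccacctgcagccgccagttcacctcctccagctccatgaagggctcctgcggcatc
KRT17: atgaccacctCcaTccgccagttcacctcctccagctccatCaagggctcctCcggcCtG

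Over the longest transcript of each gene, 39.1% of the windows of 50 bases of KRT6A occur unchanged in a transcript of another gene, against 47.1% for KRT6B and 53.6% for KRT6C. The share was 44.6% for KRT81 and 40.5% for KRT86, whose gene span encloses KRT81 in the RefSeq annotation. It was 23.8% for KRT14, 22.0% for KRT16, 11.7% for KRT17 and 12.8% for KRT83. KRT8 shared 22.1% and KRT18 21.7%, and for both the other genes include several pseudogenes. In contrast, KRT5 shared 3.99%, KRT7 0.997% and KRT10 0%. The levels of the KRT6 genes, of KRT81 and KRT86, of KRT14 and KRT16, and of KRT8 and KRT18 are therefore uncertain as values of single genes. KRT8 and KRT18 also overlap in the annotation by their gene spans. Reads lying wholly in exons of both genes could be told apart only by strand, which the tables do not state. Whether their exons overlap was not examined.

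Of all normalized counts, keratins held 1.87% (CBFB table), 3.56% (KO1 table) and 4.28% (KO2 table). Few genes made up this share, as the 4 highest keratins held 80.1%, 75.8% and 74.8% of the keratin sum in these tables. A level of at least 10 was reached by 23 of the 37 keratins listed for CBFB, 23 of the 36 for KO1 and 24 of the 39 for KO2. The other keratins were low, and 17 of the 43 were under 10 in every table that listed them. Another 12 of the 55 keratins in the groups described here were listed in no table.

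**Figure D1:**
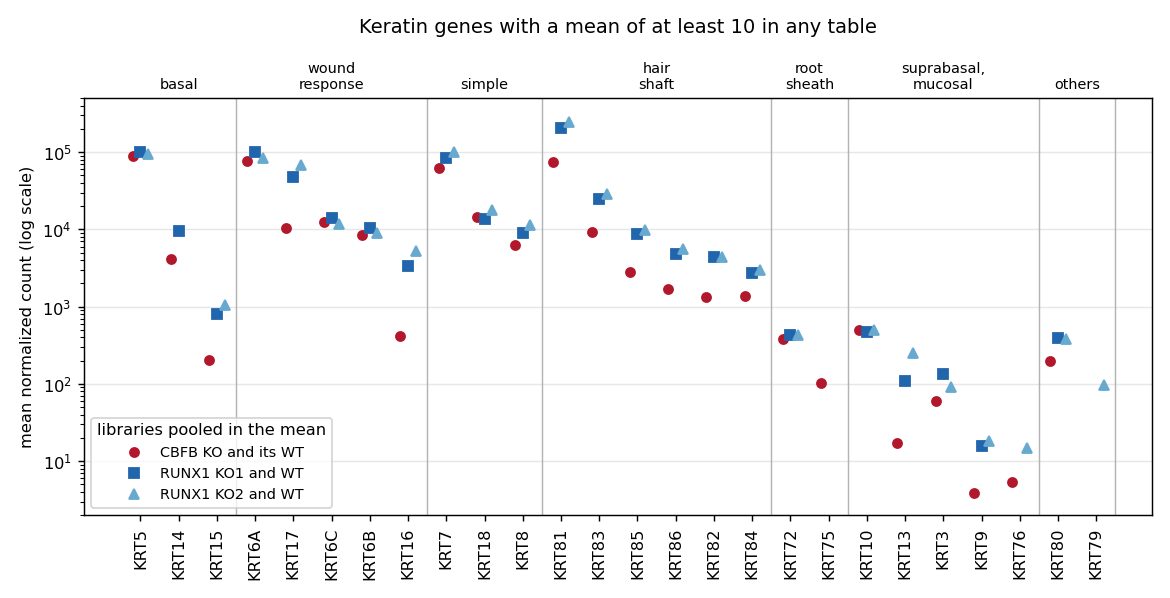
Mean normalized count (log scale) of each keratin with at least 10 in any table, by group; each point is 1 table, pooling a knockout with its WT, and there are no error bars because the tables hold no replicate values. KRT81 stood at 74692 in the CBFB table and at 202522 and 247005 in the RUNX1 tables, and a missing point means that the table does not list the gene.

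The hair shaft keratins held the largest share among the groups in the RUNX1 tables. KRT81 had 74692 normalized counts (CBFB table), 202522 (KO1 table) and 247005 (KO2 table). It ranked 11 among all genes in the first and 1 in each of the others. The 5 type II hair keratins beside it on chromosome 12 followed at lower levels. KRT83, next to KRT81, had 9279 normalized counts (CBFB table), 24586 (KO1 table) and 28561 (KO2 table). KRT85, which is among the first keratins made in the hair matrix, had 2804, 8772 and 9749 in the same order of tables. All 5 were lower in the CBFB table than in either RUNX1 table. KRT86 had 1707, 4829 and 5636, KRT82 had 1343, 4375 and 4420, and KRT84 had 1379, 2720 and 3001. The type I hair keratins that were listed, which would be their partners in the hair, were near 0. KRT35, KRT36, KRT37, KRT38, KRT39 and KRT40 were listed in no table, so their levels are not known. KRT31 and KRT33B were listed only in the KO2 table, and KRT32, KRT33A and KRT34 reached no more than 5.54, the level of KRT34 in the KO2 table.

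KRT83 and KRT86 kept nearly the same proportion to KRT81 in all tables. Per kilobase of the longest transcript, the level of KRT83 was 12.8% of that of KRT81 (CBFB table), 12.5% (KO1 table) and 11.9% (KO2 table). For KRT86, the gene that encloses KRT81, the share per kilobase was 1.99%, 2.08% and 1.99%. The highest share of KRT86 was 1.05 times its lowest, while KRT81 itself ranged over more than 3 times as deposited. For KRT84, which shares 0.490% of its windows with another gene, the share ranged from 1.12% in the KO2 table to 1.70% in the CBFB table, a range of 1.52 times. For KRT82, which shares 0.727% of its windows, the range was 1.21 times, and for KRT85, which shares 8.92%, it was 1.15 times. KRT7, which adjoins the group on chromosome 12 and encodes a keratin of simple epithelia, did not keep this proportion, with 92.4% of the level of KRT81 per kilobase (CBFB table), 45.0% (KO1 table) and 44.5% (KO2 table).

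The basal keratin KRT5 was among the highest genes of every table. It had 87894 normalized counts (CBFB table), 101688 (KO1 table) and 95221 (KO2 table), at rank 6, 5 and 6 of all genes. After the scaling between tables described below, it was 1.37-fold higher in the RUNX1 tables than in the CBFB table. KRT14, its usual partner, had 4112 in the CBFB table and 9515 in the KO1 table and was not listed in the KO2 table. Per kilobase of the longest transcript, the level of KRT14 was 7.13% of that of KRT5 in the CBFB table and 14.3% in the KO1 table. KRT15, a type I keratin of basal cells and of hair follicle stem cells, had 203, 807 and 1064 normalized counts.

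Among the wound-response keratins, the type I genes differed more between tables than the KRT6 genes did. KRT6A had 77141 normalized counts (CBFB table), 100620 (KO1 table) and 84564 (KO2 table). KRT6C had 12647, 13873 and 11581, and KRT6B had 8554, 10413 and 8926. KRT17, a partner of KRT6, had 10527 (CBFB table), 47912 (KO1 table) and 68408 (KO2 table). KRT16, another partner, had 412, 3374 and 5179. Both were lowest in the CBFB table and highest in the KO2 table. Per kilobase, KRT17 stood at 16.5% of the level of KRT5 (CBFB table), 65.0% (KO1 table) and 99.1% (KO2 table).

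The keratins of simple epithelia were led by KRT7, with 62741, 82864 and 100028 normalized counts in the CBFB, KO1 and KO2 tables. KRT18 had 14607, 13778 and 17998, and its partner KRT8 had 6334, 8895 and 11418. KRT19, a keratin of luminal mammary cells, was at 0.478, 1.99 and 2.05, and KRT20, of the gut and urothelium, was listed only in the KO1 table at 0.121. Per kilobase, the level of KRT18 was 316% of that of KRT8 (CBFB table), 212% (KO1 table) and 216% (KO2 table).

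The remaining groups were low. KRT10, the type I keratin of suprabasal epidermis, had 499, 469 and 496 normalized counts in the CBFB, KO1 and KO2 tables, whereas its partner KRT1 was at 0.507 and 0.113 in the CBFB and KO2 tables and was not listed in the KO1 table. KRT13, of mucosal epithelia, had 17.4, 109 and 250. KRT3, a keratin of the cornea, had 59.4, 133 and 91.9. In the hair follicle root sheath group, KRT72 had 378, 432 and 425, KRT75 was listed only in the CBFB table, at 103, and KRT71, KRT73 and KRT74 were no higher than 1.26. KRT80, a keratin found in many epithelia, had 197, 391 and 379, and KRT79 was listed only in the KO2 table, at 97.3.

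**Figure D2:**
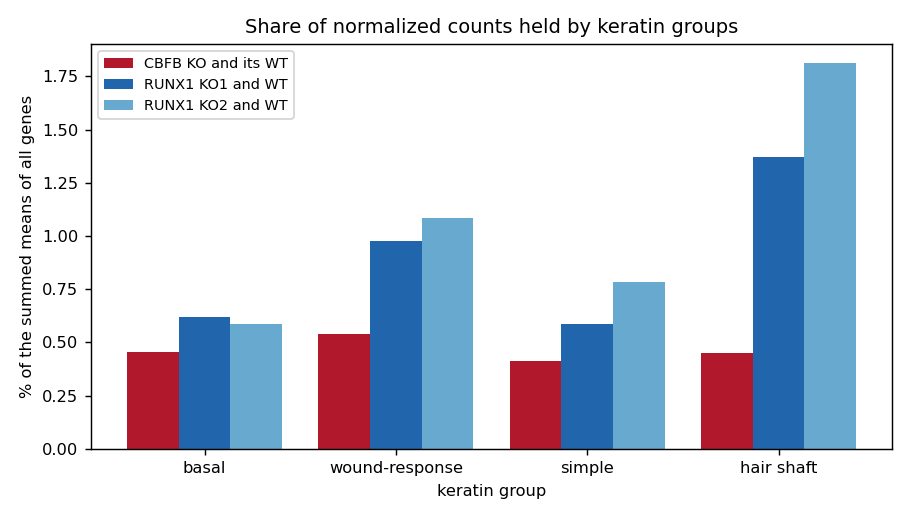
Share of the summed means of all genes (percent, axis from 0) held by the 4 largest keratin groups; each bar is 1 table and there are no error bars because the tables hold no replicate values. The hair shaft group held 0.451% (CBFB table), 1.37% (KO1 table) and 1.81% (KO2 table), while the basal group held 0.456%, 0.621% and 0.585%, the last without KRT14.

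Levels of different genes were compared per kilobase of the longest transcript. On this scale KRT81, at 38721 normalized counts per kilobase, KRT7 at 35770, KRT5 at 34727 and KRT6A at 33395 were close together in the CBFB table. By contrast, in the KO1 table KRT81 stood apart at 104988 per kilobase, above KRT7 at 47243, KRT6A at 43559 and KRT5 at 40177. In the KO2 table KRT81 was at 128048, KRT7 at 57028, KRT5 at 37622, KRT17 at 37300 and KRT6A at 36608, the last 3 within a narrow range. This order depends on the lengths: with the median transcript length of each gene, KRT81 was at 0.378 (CBFB table), 0.886 (KO1 table) and 1.15 (KO2 table) times the level of KRT5, so below it in the first and second of these. Without replicate values it cannot be said which neighbours in this order differ beyond their spread.

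Type II keratins exceeded type I keratins in every table. Summed per kilobase, type I keratins were at 15748 and type II at 162441 in the CBFB table, a ratio of 0.0969. The ratio was 0.151 in the KO1 table, from 40948 and 271893, and 0.167 in the KO2 table, from 49663 and 297527. Most of the type I sum came from KRT17, KRT18 and, where listed, KRT14, and the last table lacks KRT14. Without KRT14, KRT16, KRT17 and the KRT6 genes, the ratio was 0.0608, 0.0324 and 0.0366, so that the CBFB table then had the highest ratio. That order depends on the genes left out. KRT81, KRT86, KRT8 and KRT18 were kept, although they share 44.6%, 40.5%, 22.1% and 21.7% of their windows with other genes, against 11.7% for KRT17.

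**Figure D3:**
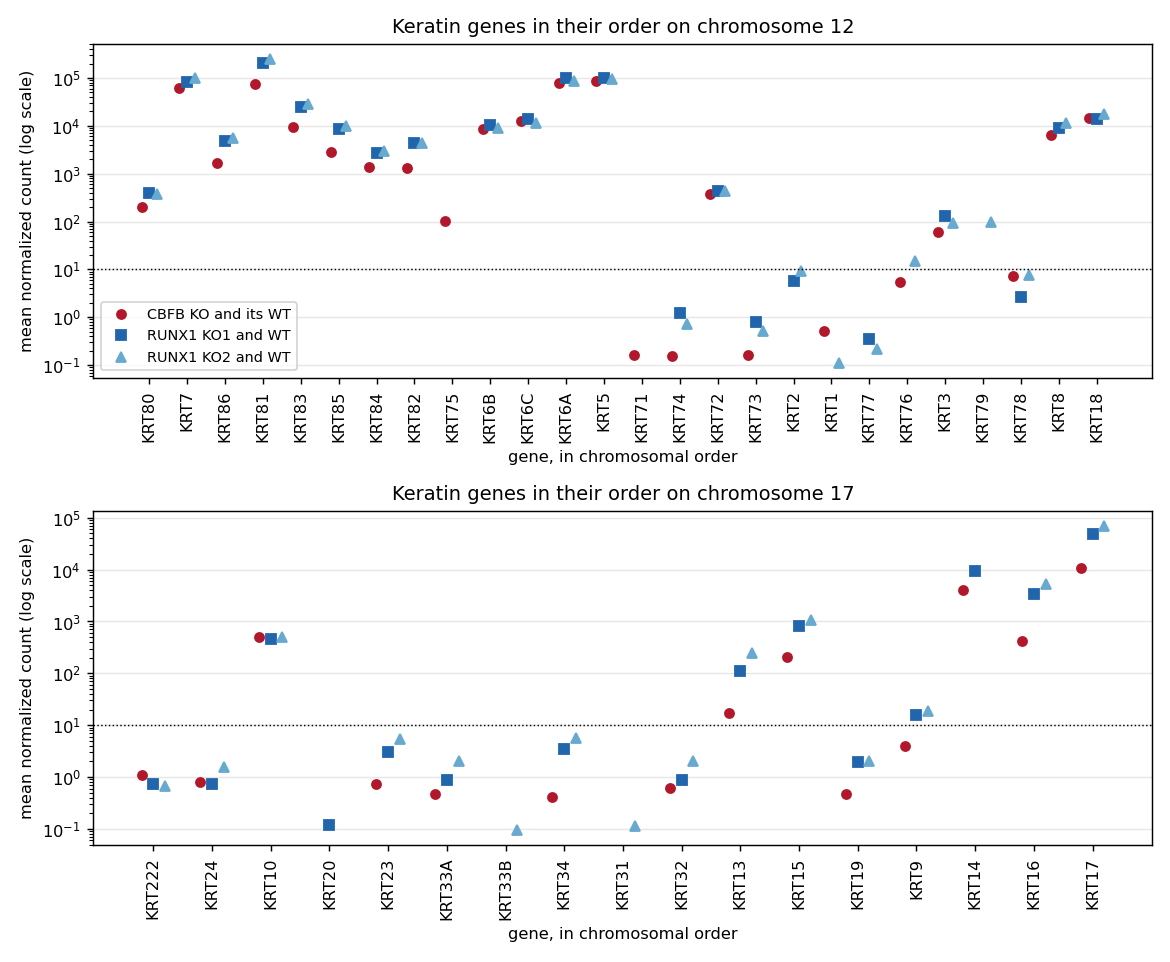
Mean normalized count (log scale) of all keratins listed in any table, in their order along chromosomes 12 and 17 in RefSeq (positions not to scale); each point is 1 table and the dotted line is at 10. On chromosome 12, levels of at least 1343 in every table lay in runs from KRT7 to KRT82 and from KRT6B to KRT5, and in KRT8 and KRT18. On chromosome 17, KRT14, KRT16 and KRT17 stood at one end. Of these, KRT17 was above 1343 in every table, KRT16 was at 412 in the CBFB table, and KRT14 was not listed in the KO2 table.

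In their order along chromosome 12, the hair keratins KRT86, KRT81, KRT83, KRT85, KRT84 and KRT82 lie between KRT7 and KRT75, followed by KRT6B, KRT6C, KRT6A and KRT5. All of these except KRT75 had at least 1343 normalized counts in each table. From KRT71 to KRT78, the next 11 listed genes, the highest level was 432, for KRT72 in the KO1 table. KRT8 and KRT18 close the cluster with levels of at least 6334. On chromosome 17 the genes from KRT222 to KRT32 were under 10 apart from KRT10.

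The RUNX1 clones were compared through their tables. By the labels there is a single WT group for both, so a difference of scaled means between the KO2 and KO1 tables comes from the knockout libraries if the scaling holds. Without replicate values, a difference between the clones cannot be told from spread between libraries. The means of the KO2 table were divided by 0.931, the median ratio of abundant genes. Because WT is part of each mean, the ratio of the tables is closer to 1 than the ratio of the clones. A ratio of at least 1.3 was counted as a difference, without a test, over the 13123 genes with at least 10 in both tables. Of these genes, 577 (4.4%) were higher and 89 (0.678%) were lower in the KO2 table.

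Of the 22 keratins compared, 7 were higher in the KO2 table (31.8%) and 1 was lower. The median log2 ratio was 0.29 over the keratins and 0.00 over all genes compared. The higher genes were the type I keratins KRT13, KRT16, KRT17, KRT15 and KRT18 and the type II keratins KRT8 and KRT81. Without scaling, KRT8 and KRT81 were no longer past the ratio, and with a ratio of at least 1.5 only KRT13, KRT16 and KRT17 remained. KRT13 had the widest ratio, with 109 normalized counts in the KO1 table and 268 in the scaled KO2 table, 2.47-fold, and 1 of the 13123 genes had a higher ratio. Since KO1 cannot be below 0, WT was at most 2 times the KO1 table mean, and KRT13 in KO2 was at least 1.47 times WT if the scaling holds. KRT16 followed at 1.65-fold, from 3374 to 5565, and KRT17 at 1.53-fold, from 47912 to 73501. The ratio was 1.42 for KRT15, 1.40 for KRT18, 1.38 for KRT8 and 1.31 for KRT81. If the scaling holds, and at equal numbers of knockout and WT libraries, the means of the clones differed by 51180 normalized counts for KRT17 and 125745 for KRT81, KO2 being the higher. On the same condition, these 7 ratios are no more than lower limits of the ratio of the clone means.

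The keratins of the KRT6 and KRT5 run did not move with them. KRT5 had 101688 normalized counts in the KO1 table and 102311 in the scaled KO2 table, a ratio of 1.01, and without scaling the direction turned, at a log2 ratio of -0.09. The ratio was 0.903 for KRT6A, 0.897 for KRT6C and 0.921 for KRT6B. KRT7, at 1.297, and KRT3, lower at 0.745, were next to the limits on either side. The other hair keratins were between 1.09 for KRT82 and 1.25 for KRT86. Pooled levels do not tell whether KRT81 differed between KO1 and WT.

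**Figure D4:**
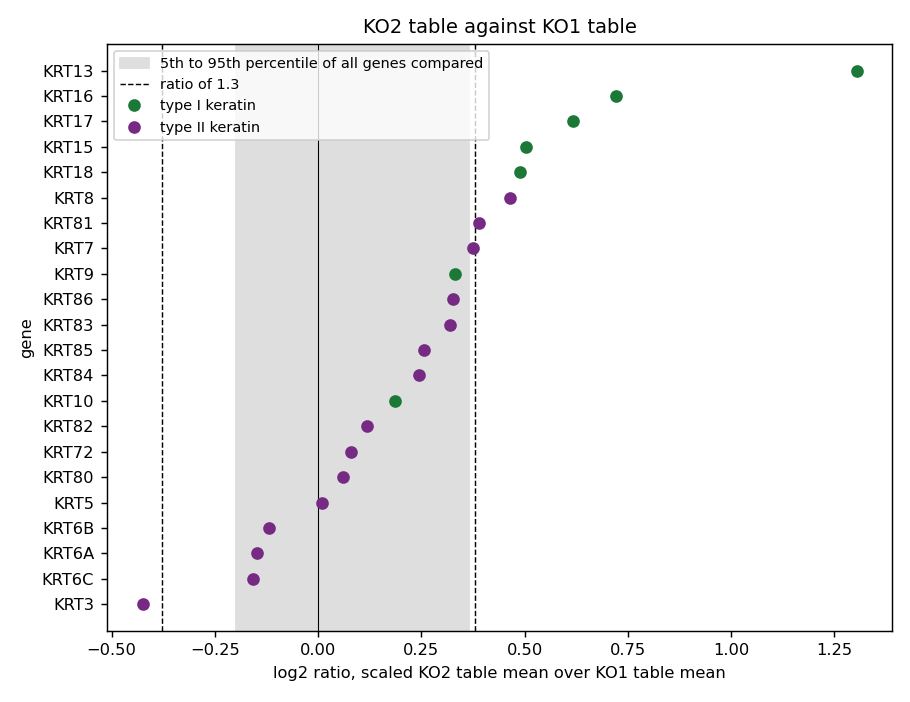
Log2 ratio of the scaled KO2 table mean to the KO1 table mean for the 22 keratins with at least 10 in both tables; points are genes, coloured by keratin type, the grey band spans the 5th to 95th percentile of 13123 genes and dashed lines mark a ratio of 1.3 either way. The 5 keratins furthest to the right are type I, and the KRT6 genes lie left of 0.

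The CBFB and RUNX1 experiments differ in their knockout, their WT libraries and their normalization, and these cannot be told apart in the following values. The CBFB table was divided by 1.18, the median ratio of abundant genes to the RUNX1 tables, and set against the average of the KO1 and scaled KO2 tables. A ratio of at least 2 was counted, without a test, over 12914 genes with at least 10 in all tables. Of these genes 303 (2.35%) were higher and 376 (2.91%) were lower in the CBFB table.

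Of 21 keratins compared, 12 were lower in the CBFB table (57.1%) and 0 were higher. The median log2 ratio was -1.27 over the keratins and -0.01 over all genes compared. The 12 were all 6 type II hair keratins, the type I keratins KRT13, KRT15, KRT16 and KRT17, and KRT3 and KRT80. KRT16 was 12.8-fold higher in the RUNX1 tables, with 348 normalized counts in the scaled CBFB table and 4469 in the RUNX1 average, and KRT13 was also 12.8-fold higher, from 14.7 to 188. Only 4 and 5 of the 12914 genes, respectively, had a lower ratio. KRT17 was 6.83-fold higher in the RUNX1 tables and KRT15 5.70-fold. The hair keratins were 4.06-fold (KRT85), 4.02-fold (KRT82), 3.78-fold (KRT86), 3.71-fold (KRT81), 3.53-fold (KRT83) and 2.55-fold (KRT84) higher.

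Pooling limits what these ratios say of single groups, but a bound can be given. Neither the CBFB KO nor its WT can have exceeded 2 times the scaled table mean, and at least 1 RUNX1 experiment group was at or above the higher table mean. For KRT13 some group of the RUNX1 experiment was thus at least 9.12 times any group of the CBFB experiment, given the scaling. The same bound was 7.99 for KRT16, 4.13 for KRT17, 3.34 for KRT15 and 2.10 for KRT81. The keratins that stayed within 2-fold were KRT5, KRT7, KRT8, KRT10, KRT18, KRT72 and the KRT6 genes. KRT8 came closest to the limit, at 1.98-fold, and KRT10 was nearest to equal, at 1.19-fold higher in the RUNX1 tables, a direction that turned without scaling.

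**Figure D5:**
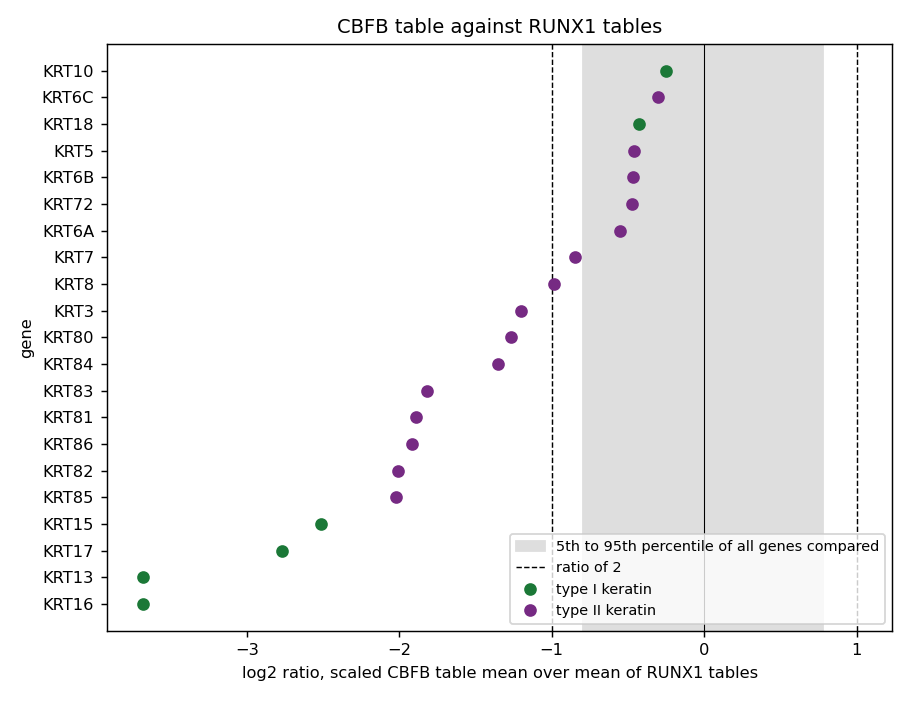
Log2 ratio of the scaled CBFB table mean to the average of the RUNX1 tables for the 21 keratins with at least 10 in all tables; points are genes, coloured by keratin type, the grey band spans the 5th to 95th percentile of 12914 genes and dashed lines mark a ratio of 2 either way. All 21 points lie left of 0 (without scaling, 20 of them, KRT10 then being at 0.05), with KRT16 and KRT13 lowest and the hair keratins between KRT15 and KRT80.

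Genes that anchor keratin filaments or form other intermediate filaments were examined as a fixed list of 17. In the KO2 against the KO1 table, 0 of 15 compared were higher and 1 was lower, PKP1, a desmosomal plaque protein, at 0.480-fold. PKP1 was near the minimum of 10, with 23.2 normalized counts in the KO1 table and 11.1 in the scaled KO2 table. Of all genes in this comparison, 4.4% were higher and 0.678% were lower. In the CBFB against the RUNX1 tables, 2 of 14 were higher, SYNM and VIM, and 1 was lower, PPL, a cornified envelope linker. Of all genes in that comparison, 2.35% were higher and 2.91% were lower. SYNM was low, with 58.4 normalized counts (CBFB table), 18.2 (KO1 table) and 17.7 (KO2 table). VIM, the filament protein of mesenchymal cells, had 3352 normalized counts (CBFB table), 674 (KO1 table) and 560 (KO2 table). DSP, which ties keratins to desmosomes, had 11810, 7507 and 6113, and PLEC, which ties them to hemidesmosomes, had 35367, 20408 and 17249. Other genes of the list ran the other way. JUP had 6633, 8777 and 8979, and PKP3 had 4075, 4804 and 4874. These levels are not scaled, and DSP, PLEC, JUP and PKP3 all stayed within 2-fold after scaling. Among the cell type markers, 1 of 6 epithelial genes, CLDN4, was higher in the KO2 than in the KO1 table, at 1.33-fold, and 0 of 7 basal and 0 of 5 luminal genes were. In the other comparison, 3 of 6 epithelial genes (CLDN4, CLDN7 and OCLN) and 2 of 5 luminal genes (CD24 and MUC1) were lower in the CBFB table, while 0 of 7 basal genes were lower and 1, EGFR, was higher. The part of a changed cell state or mixture in the keratin values was not tested, and in bulk RNA fewer cells of a type and less RNA per cell cannot be told apart.

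Promoter sequence was available in RefSeq (GRCh38.p14) for 22 of the 43 keratins. It was missing for KRT81, KRT83, KRT86, KRT13, KRT15, KRT16, KRT17 and KRT80, so these genes were not searched. The same holds for KRT7, KRT14, KRT18 and the KRT6 genes. The 250 bases before the start were searched on both strands for TGTGGT and TGCGGT, letters that RUNX factors bind. Of 35097 promoters, 16.3% held a match, as did 3 of the 22 (13.6%), those of KRT20, KRT31 and KRT84. KRT84 was the only abundant keratin among them. Its promoter (chr12:52385653-52385902, minus strand) is shown with the match, read on the other strand, in capitals, beside that of KRT5 (chr12:52520395-52520644, minus strand), which had no match. KRT84 was 2.55-fold and KRT5 1.37-fold higher in the RUNX1 tables. KRT82, KRT85 and KRT3, also without a match, were 4.02-fold, 4.06-fold and 2.31-fold higher there.
KRT84: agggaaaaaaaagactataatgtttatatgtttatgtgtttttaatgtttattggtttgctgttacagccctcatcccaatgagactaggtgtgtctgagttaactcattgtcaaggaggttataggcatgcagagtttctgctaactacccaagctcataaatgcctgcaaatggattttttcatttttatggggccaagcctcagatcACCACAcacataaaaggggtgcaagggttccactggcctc
KRT5: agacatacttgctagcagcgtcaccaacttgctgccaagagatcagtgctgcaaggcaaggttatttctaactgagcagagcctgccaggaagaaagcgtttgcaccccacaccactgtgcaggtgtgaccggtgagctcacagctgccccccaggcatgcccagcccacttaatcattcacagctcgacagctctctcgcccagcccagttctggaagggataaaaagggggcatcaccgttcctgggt

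A match of these letters is a description of the sequence and not a binding site.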

How the data were processed

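The sample labels gave the groups. The deposited values used are signals, namely means of the authors' normalized counts over all libraries of a knockout and its WT, in 3 tables. Per the labels, the submitters' processing notes name Trimmomatic, STAR, DESeq2 and hg19, without versions or roles. The labels name an mRNA kit, whereas the methods of the study remove ribosomal RNA, so the library type is not settled. The 5 other numeric columns of each table hold the authors' comparisons (log2 fold change, its SE, test score, p-value and adjusted p-value) and were not used. The tables held 0 columns of per-sample values, so no test was run and no replicate error or precision by depth could be given. Matrices also named in the labels were not analysed here.

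Genes were joined by Entrez ID with pandas 2.3.3 and numpy 2.4.6 (python 3.11.15). Tables were scaled by the median ratio of genes at 100 normalized counts or more. A ratio of at least 1.3 (KO2 against KO1) or 2 (CBFB against RUNX1) was counted among genes at 10 or more. That KO1 and KO2 share WT libraries is read from the labels. Lengths came from the longest GENCODE 29 transcript, and gene order and promoters from RefSeq GRCh38.p14, which is not the build of the tables. No pseudocount was added. Keratins with a mean of at least 100 in any table or past a ratio were named, and the others were given by group counts and ranges. The scaling and the ratio of the KO2 to the KO1 table were tested on simulated tables, and the other steps were not. Members and lists were chosen with earlier results of these data known, and the pairs of keratins set against each other were chosen after the values were seen. Other scalings, filters, thresholds, pseudocounts and lengths were tried. One sequence comparison between keratins is not reported here.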

Additional observations from a re-analysis of the deposited data

How the results depend on the processing

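Of the keratins, 7 were higher in the KO2 than in the KO1 table (4.4% of all genes), 11 with a minimum mean of 1 (7.14%) and 3 with a ratio of at least 1.5 (0.739%). The 1 lower keratin was 0 with a minimum mean of 100 and 0 with a ratio of at least 1.5. Scaling by the sum of the means gave 8 higher (5.75%) and no scaling 5 (1.65%), with KRT7 gained in the first and KRT8 and KRT81 lost in the second. For CBFB against RUNX1, 12 keratins were lower (2.91% of all genes), 14 with a ratio of at least 1.5 (9.88%), 13 with a minimum mean of 1 (4.95%) and 10 with a minimum mean of 100 (0.995%). Without scaling 10 were lower (1.77%), KRT3 and KRT80 being lost at log2 ratios of -0.92 and -0.97. No scaling moved the median log2 ratio of all genes to -0.10 (KO2 against KO1) and 0.29 (CBFB against RUNX1). No keratin past a ratio changed direction. Of the others, without scaling, KRT10 in CBFB against RUNX1 went from -0.25 to 0.05 (log2), and in KO2 against KO1 KRT5 went from 0.01 to -0.09, KRT72 from 0.08 to -0.02 and KRT80 from 0.06 to -0.04.

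The keratin share was, in the CBFB, KO1 and KO2 tables, 1.87%, 3.56% and 4.28% over genes with a mean of at least 10, 1.85%, 3.51% and 4.28% with keratins listed in every table, and 1.11%, 0.925% and 1.16% without the 10 highest genes, which include keratins. KRT81 over KRT5 per length was 0.378, 0.886 and 1.15 with median transcript lengths, against 1.11, 2.61 and 3.40 with the longest transcript, so the order turned in the CBFB and KO1 tables. The ratio of type I to type II was 0.0875, 0.134 and 0.153 without division by length, 0.111, 0.167 and 0.187 with the longest protein-coding transcript, 0.0817, 0.130 and 0.167 with keratins listed in every table, and 0.0608, 0.0324 and 0.0366 without KRT6A, KRT6B, KRT6C, KRT14, KRT16 and KRT17. The protein-coding lengths and the restriction to keratins in every table were chosen after seeing the data. No paired analysis was possible because the tables used here hold no value per library, and for the same reason leaving out a replicate was not run.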

Other observations

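Pseudogenes of keratins were listed beside the genes. KRT42P, a pseudogene of the type I cluster, had 4.15 normalized counts (CBFB table), 1.61 (KO1 table) and 83.7 (KO2 table). It was chosen after its values were seen. KRT16P3, which shares 13.0% of the windows of KRT16, had 12.9, 62.6 and 90.1 in these tables, in the same order from low to high as KRT16. KRT16P2 had 8.19, 25.8 and 25.5.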
